A study of Mus musculus with 12 samples.

Results

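The levels of 10 genes of pulmonary surfactant and of the alveolar type 2 cell were measured in the lungs of mice given a nitric oxide synthase inhibitor together with a high-fat diet. The 10 genes, Sftpc, Sftpb, Sftpa1, Sftpd, Abca3, Lamp3, Slc34a2, Napsa, Etv5 and Acoxl, were chosen by name out of the 23127 genes in the deposited table, and all 10 passed the filter for testing, a mean of 1 CPM (reads of a gene per 1e6 reads of the library) or more, as did 15562 genes in all. The material was bulk RNA from flash-frozen whole lung of 12 C57BL6/J mice, 1 library per mouse. Of these, 4 mice were 0-week controls, 4 had received L-NAME at 0.5 g/L in the drinking water with a diet of 60% lipid for 2 weeks, and 4 had received the same combination for 5 weeks. L-NAME inhibits nitric oxide synthases and raises blood pressure, and the combination with a high-fat diet is widely used in mice as a model of heart failure with preserved ejection fraction. No group had L-NAME or the diet alone, and the libraries analysed here hold no untreated mice at 2 or 5 weeks, so the agent, the diet and the passage of time cannot be told apart. The labels used here give neither sex nor age, nor the diet of the 0-week mice. A single-cell experiment mentioned in the study's design text was not analysed here.

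Alveolar type 2 cells are the cuboidal cells of the alveolar wall that make surfactant, the film of phospholipid and protein that keeps alveoli open at low lung volume. They assemble the phospholipid and the hydrophobic proteins in lamellar bodies, secrete these organelles into the airspace, take much of the material back, and serve as progenitors of the flat alveolar type 1 cells. Because surfactant lipid is made from fatty acids and is cleared in part by alveolar macrophages, diet and macrophages are both linked to it.

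All 10 genes were present in every library, and together they took between 1.94% and 2.81% of all CPM. The treated libraries overlapped the 0-week controls for 9 of 10 genes at 2 weeks and for 8 of 10 at 5 weeks. Acoxl was the exception at both times, since its 8 treated libraries all lay above the 4 controls. Napsa was so at 5 weeks, where its 4 libraries all lay above the controls. Libraries that did not overlap and were higher were also seen for 3.37% of all genes tested at 2 weeks and for 3.65% at 5 weeks. No difference between groups passed a limma adjusted p of 0.05 over all genes, for these 10 or for any other gene (0% called in each comparison). In bulk tissue, a change in the number of alveolar type 2 cells and a change in RNA per cell cannot be told apart.

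Levels between genes can be compared only per length of transcript. Per kilobase of exon in GENCODE M21, Sftpc averaged 12400 CPM, Sftpb 1920 CPM and Sftpa1 1010 CPM over the 12 libraries. Slc34a2 followed with 331 CPM per kilobase, Sftpd with 229, Lamp3 with 153 and Napsa with 124. These neighbours did not overlap in any library, apart from Lamp3 at 127 to 171 and Napsa at 106 to 149 CPM per kilobase. Etv5 averaged 41.9 and Abca3 36.4 CPM per kilobase, with ranges of 34.0 to 52.3 and 29.5 to 40.1 that overlapped. Acoxl was the lowest, at 11.5 CPM per kilobase with a range of 7.54 to 14.3. The secreted surfactant proteins of Sftpc, Sftpb and Sftpa1 thus led the order, Sftpd stood below the carrier Slc34a2, and the oxidase-like gene closed it. The genes Sftpc, Sftpa1 and Sftpd lie on chromosome 14, and Lamp3 and Etv5 on chromosome 16. Sftpb lies on chromosome 6, Slc34a2 on 5, Abca3 on 17, Napsa on 7 and Acoxl on 2.

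The promoters of 3 genes are shown because Sftpb and Sftpa1 varied closely together from lung to lung, and because Acoxl had the largest differences from controls. Each runs from 250 bases before to 50 bases after the annotated start, 5′ to 3′ on the plus strand, from RefSeq on build GRCm38.p6. An entry was found for 7 of the 10 genes. Sftpb is at chr6:72304360-72304659, Sftpa1 at chr14:41131538-41131837 and Acoxl at chr2:127854378-127854677. Capitals mark matches to short motifs, none of which overlapped another.
Sftpb: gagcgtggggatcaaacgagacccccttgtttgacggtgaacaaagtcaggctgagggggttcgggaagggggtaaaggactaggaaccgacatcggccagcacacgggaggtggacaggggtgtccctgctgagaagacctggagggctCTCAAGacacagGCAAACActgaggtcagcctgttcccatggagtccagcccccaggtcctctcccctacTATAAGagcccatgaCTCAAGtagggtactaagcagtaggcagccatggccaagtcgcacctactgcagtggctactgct
Sftpa1: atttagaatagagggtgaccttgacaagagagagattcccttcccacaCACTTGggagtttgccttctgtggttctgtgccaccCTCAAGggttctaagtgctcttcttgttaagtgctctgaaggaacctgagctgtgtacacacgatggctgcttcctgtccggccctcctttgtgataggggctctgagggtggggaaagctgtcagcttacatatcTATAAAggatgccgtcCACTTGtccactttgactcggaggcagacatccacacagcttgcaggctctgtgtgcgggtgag
Acoxl: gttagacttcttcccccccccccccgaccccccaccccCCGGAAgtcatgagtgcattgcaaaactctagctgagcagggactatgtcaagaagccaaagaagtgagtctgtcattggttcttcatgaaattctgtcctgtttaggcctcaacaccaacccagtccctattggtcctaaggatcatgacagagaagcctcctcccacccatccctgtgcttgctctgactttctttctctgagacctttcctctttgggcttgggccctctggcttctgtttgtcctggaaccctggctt
The motifs searched, on both strands, were CTCAAG and CACTTG for NKX2-1, GTAAACA and GCAAACA for the FOXA factors, CCGGAA for ETS factors and TATAAN for the TATA box. In Sftpb, CTCAAG began at positions -100 and -15 from the start, GCAAACA at -88 and TATAAG at -30. In Sftpa1, CTCAAG began at -166, CACTTG at -202 and -14, and TATAAA at -30. Acoxl held only CCGGAA, at -212. Among 32851 promoters of the same length, CTCAAG occurred in 15.9%, CACTTG in 13.6%, GCAAACA in 5.07%, CCGGAA in 14.9% and TATAAN in 24.8%, so each match is a common one and is given as a description only. Of the other promoters, CCGGAA was found in Abca3, at -156. GTAAACA, present in 3.65% of promoters, was found in Etv5 at -183 and, on the opposite strand, in Lamp3 at -92. The promoter of Slc34a2 held none of these motifs, although Slc34a2 had the highest Pearson's r with Sftpb across the libraries, at 0.92. The part of motifs in how genes varied together was not tested.

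Depth and library makeup were examined before the groups were compared. The steps between low values gave depths of 26.0 to 34.1 M reads (M, 1e6) per library, and no 2 of the 12 libraries were identical. In all, 3 libraries had been seen in earlier results of these data to stand apart. Control replicate 2 had a summed level of 12 adipocyte markers of 2208 CPM, against 78.8 to 245.0 CPM in the other libraries. The 5-week replicate 3 had 16211 CPM of 7 red cell genes, against 1080.0 to 4489.9 CPM elsewhere. In the same library longer genes were lower: the level of a gene relative to its own mean had a Spearman rho of -0.52 with exonic length over 15536 genes, where the other libraries lay between -0.14 and 0.42. The 2-week replicate 3 had the lowest summed level of 15 alveolar macrophage markers, 553.7 CPM, but 2-week replicates 1 and 2 and control replicate 3 were close to it at 618.0, 651.5 and 609.4 CPM, and the remaining libraries held 1000.2 to 1639.6 CPM. The highest of these sums, in control replicate 2, included Fabp4 and Cidec, which are in both the macrophage and the adipocyte list. The part of these library features in the results below was not tested. Values without the libraries that stood apart are given beside the values they changed most.

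Among the secreted proteins, Sftpc, which encodes the hydrophobic surfactant protein C and is the classical marker of the type 2 cell, was the most abundant. It stood at 12375, 9794, 12546 and 10918 CPM in the 0-week controls, at 13769, 11751, 12229.5 and 13516 CPM at 2 weeks, and at 12911, 12135, 18046 and 13628 CPM at 5 weeks. The 5-week replicate 3 was the highest of the 12 and control replicate 2 the lowest, and the groups overlapped. At 5 weeks Sftpc averaged 14180.3 ± 2648.5 CPM, against 11408 ± 1300.6 CPM in controls (SD, n = 4 each), a log2 difference of 0.30 ± 0.15 (SE, 95% interval -0.03 to 0.64) with a limma adjusted p of 0.614. Without the 5-week replicate 3 that difference was 0.18, and without all 3 libraries that stood apart it was 0.11. At 2 weeks the mean was 12816 ± 979.2 CPM and the difference from controls 0.17 ± 0.15, with an adjusted p of 0.716, or 0.12 without the 3 libraries.

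Sftpb, which encodes the hydrophobic protein B needed for lamellar bodies to form and for the film to spread, was nearly level across the study. Its libraries held 4122, 3589, 3523 and 3868 CPM at 0 weeks, 3998, 3578, 3511 and 4055 CPM at 2 weeks, and 3748, 3825, 3618 and 3944 CPM at 5 weeks. The 3 ranges overlapped almost entirely. Its log2 differences were 0.00 ± 0.09 at 2 weeks and 0.01 ± 0.09 at 5 weeks over controls, and the 95% interval of the fold over controls was 0.87 to 1.15 at each time.

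Sftpa1 and Sftpd encode the collectins A and D, water-soluble lectins of innate defence that also bind surfactant lipid. Sftpa1 held 2969, 2671, 2538 and 3005 CPM at 0 weeks, 3159, 2824, 2646 and 3180 CPM at 2 weeks, and 2869, 2923, 2946 and 3033 CPM at 5 weeks. Its 4 libraries at 5 weeks sat inside the range of the 2-week group, and 1 of them, replicate 4, lay above every control. The coefficient of variation was 8.16% at 0 weeks, 8.85% at 2 weeks and 2.31% at 5 weeks. Sftpd held 582.7, 520.4, 568.9 and 531.1 CPM at 0 weeks, 610.9, 541.5, 505.8 and 572.1 CPM at 2 weeks, and 539.1, 534.1, 587.7 and 549.6 CPM at 5 weeks. The highest and the lowest of its 12 libraries were both in the 2-week group, and the groups overlapped. Sftpd averaged 550.8 ± 29.8 CPM at 0 weeks, 557.6 ± 44.7 CPM at 2 weeks and 552.6 ± 24.2 CPM at 5 weeks (SD, n = 4 each). Its 95% interval of the fold over controls, 0.91 to 1.13 at 2 weeks and 0.90 to 1.12 at 5 weeks, was the narrowest of the 10 genes.

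**Figure D1:**
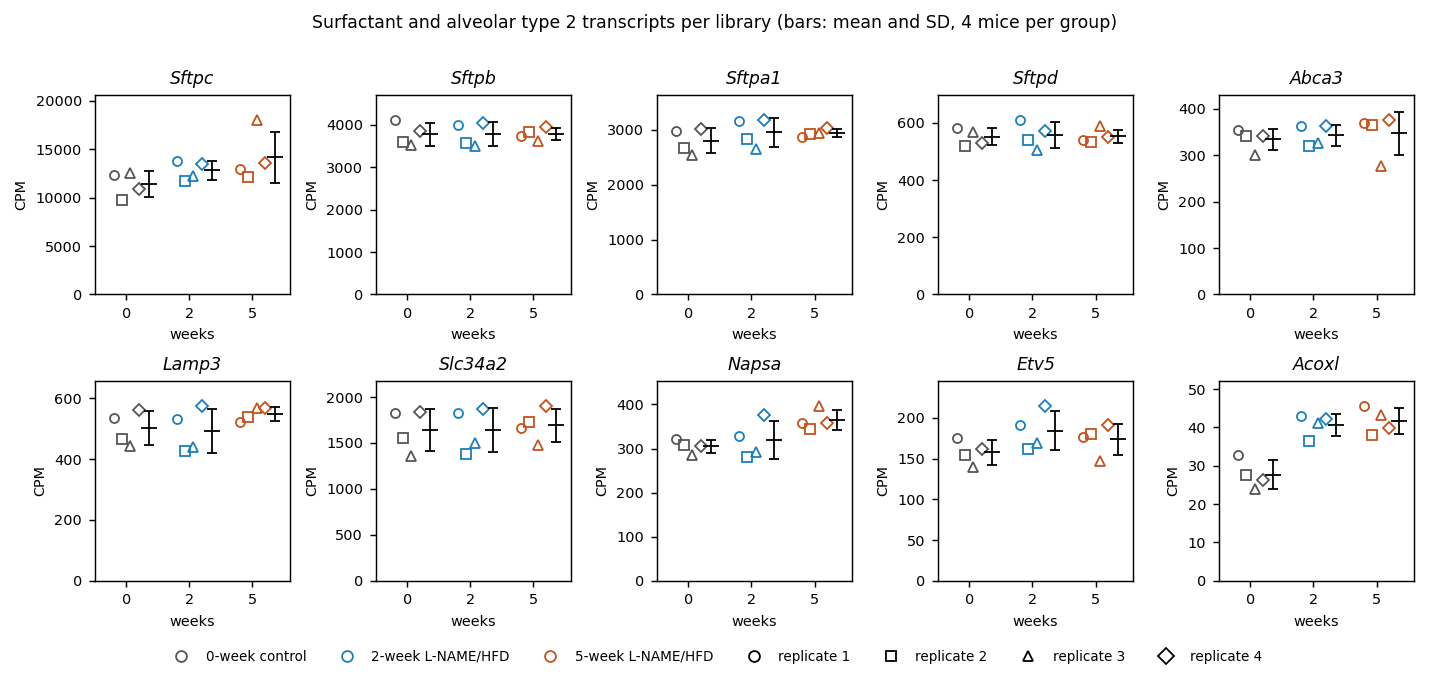
CPM of each of the 10 genes (vertical axis, from 0) in the 0-week control, 2-week and 5-week L-NAME/HFD groups (horizontal axis), with 1 symbol per library and black bars for the mean and SD of 4 mice. Acoxl is the panel in which all 8 treated libraries, at 36.4 to 45.6 CPM, lie above the 4 controls, at 24.0 to 32.9 CPM.

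The lamellar body was represented by its lipid pump, a membrane protein and a protease. Abca3, the transporter that loads phospholipid into lamellar bodies, held 353.4, 341.9, 300.4 and 341.0 CPM at 0 weeks, 362.5, 320.1, 327.4 and 362.2 CPM at 2 weeks, and 370.1, 364.2, 276.8 and 376.4 CPM at 5 weeks. At 5 weeks 3 libraries lay above every control, while replicate 3 was the lowest of all 12. The log2 difference was 0.05 ± 0.10 with that library and 0.15 without it, at 5 weeks over controls. Abca3 also shares 914 exonic bases with a transcript annotated on the other strand, D330041H03Rik, which averaged 1.62 CPM.

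Lamp3, a glycoprotein of the lamellar body membrane, held 534.6, 465.1, 444.8 and 562.2 CPM at 0 weeks, 532.1, 427.4, 438.6 and 574.7 CPM at 2 weeks, and 520.6, 539.9, 567.2 and 567.9 CPM at 5 weeks. At 0 and at 2 weeks a pair of libraries was low and a pair high, while all 4 libraries at 5 weeks lay above both low pairs, and the groups overlapped. The difference was 0.14 ± 0.10 for 5 weeks over 0 weeks and 0.16 ± 0.10 for 5 weeks over 2 weeks, with adjusted p of 0.716 and 0.605 in limma. These differences were 0.09 and 0.10 without the 3 libraries that stood apart. With 1 library left out in turn they ranged from 0.08, without control replicate 3, to 0.19 and from 0.10, without 2-week replicate 2, to 0.24.

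Napsa encodes napsin A, an aspartic protease that trims the precursor of surfactant protein B. It held 320.6, 307.1, 285.1 and 306.4 CPM at 0 weeks, 328.1, 281.6, 291.9 and 375.6 CPM at 2 weeks, and 358.0, 344.8, 396.4 and 358.8 CPM at 5 weeks. All 4 libraries at 5 weeks lay above all 4 controls, and those at 2 weeks overlapped both other groups. Napsa averaged 364.5 ± 22.2 CPM at 5 weeks, against 304.8 ± 14.6 CPM in controls (SD, n = 4 each), a log2 difference of 0.26 ± 0.09 (95% interval 0.07 to 0.45, or a fold of 1.05 to 1.36). The exact two-sided permutation p was 0.0286, the smallest that 4 against 4 can give, and the limma p was 0.0121 before and 0.53 after adjustment over 15562 genes. The difference was 0.22 without the 5-week replicate 3, the library with the red cell genes, in which Napsa was highest. Between 5 and 2 weeks Napsa differed by 0.20 ± 0.09, with a limma p of 0.0429 before and 0.443 after adjustment, and by 0.12 without the 3 libraries.

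Slc34a2, the sodium-dependent phosphate carrier of the apical membrane that recovers phosphate from spent surfactant phospholipid, held 1824, 1554, 1356 and 1833 CPM at 0 weeks, 1829, 1383, 1504 and 1866 CPM at 2 weeks, and 1664, 1725, 1474 and 1902 CPM at 5 weeks. Every group held both high and low libraries, and the groups overlapped throughout. The group means were 1642, 1646 and 1691 CPM at 0, 2 and 5 weeks, and the log2 differences from controls were 0.00 ± 0.13 at 2 weeks and 0.05 ± 0.13 at 5 weeks, the second being 0.09 without the 3 libraries.

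Etv5, an ETS transcription factor that acts downstream of fibroblast growth factor and ERK signalling and maintains type 2 identity in the mouse, held 175.0, 154.3, 139.3 and 161.8 CPM at 0 weeks, 191.2, 161.4, 169.8 and 214.7 CPM at 2 weeks, and 176.5, 180.9, 147.2 and 191.7 CPM at 5 weeks. At 2 weeks 2 libraries exceeded every control and the other two lay within the range of the controls, so the groups overlapped. Etv5 averaged 184.3 ± 23.8 CPM at 2 weeks, against 157.6 ± 14.9 CPM in controls (SD, n = 4 each). That difference, 0.22 ± 0.11 (95% interval -0.01 to 0.45), had a limma adjusted p of 0.549. It was 0.14 without the 2-week replicate 4, the highest of the 12 libraries, and 0.12 ± 0.14 when levels were centred on the pan-epithelial genes.

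Acoxl, an acyl-coenzyme A oxidase-like gene named for its resemblance to the peroxisomal oxidases of fatty acids, had the largest differences from controls of the 10. It held 32.9, 27.6, 24.0 and 26.4 CPM at 0 weeks, 43.0, 36.4, 41.1 and 42.2 CPM at 2 weeks, and 45.6, 38.0, 43.2 and 39.9 CPM at 5 weeks. Both treated groups lay wholly above the controls and overlapped each other. At 2 weeks Acoxl averaged 40.7 ± 2.94 CPM, against 27.7 ± 3.78 CPM in controls (SD, n = 4 each), a log2 difference of 0.54 ± 0.10 (95% interval 0.33 to 0.75, or a fold of 1.26 to 1.69). At 5 weeks it averaged 41.7 ± 3.38 CPM, a log2 difference from controls of 0.58 ± 0.10 (95% interval 0.37 to 0.79, or a fold of 1.29 to 1.73). The exact two-sided permutation p was 0.0286 at each time, the smallest possible. In limma the p was 8.88e-05 at 2 weeks and 4.98e-05 at 5 weeks, and 0.0983 and 0.215 after adjustment over all genes, so neither passed.

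Acoxl at 5 weeks differed from Acoxl at 2 weeks by 0.03 ± 0.10 (95% interval -0.18 to 0.24). With both treated groups pooled, a comparison added after the values were seen, Acoxl was higher by 0.56 ± 0.08 in 8 of 8 treated libraries (such separation was seen for 0.662% of all genes tested), with a limma adjusted p of 0.0787 that ranged from 0.0259 to 0.319 over the alternatives. Leaving out control replicate 1, the highest control, gave the value of 0.0259, in a setting where 0.0128% of all genes passed. Over any of the 3 groups, the limma F-test gave Acoxl an adjusted p of 0.163. That p was 0.0424 with a weight for each library, where 1.84% of all genes passed, and 0.045 without the 2-week replicate 4, where 0.848% passed. It did not pass in any other alternative, and was highest, at 0.441, without the 3 libraries that stood apart. In that setting the differences at 2 and 5 weeks over controls were 0.54 and 0.56, with limma adjusted p of 0.285 and 0.611. Centred on 18 pan-epithelial genes they were 0.44 ± 0.12 and 0.55 ± 0.12, with limma adjusted p of 0.373 and 0.311. Those pan-epithelial genes had a mean log2 level of 5.80 to 6.04 at 0 weeks, 5.88 to 6.14 at 2 weeks and 5.90 to 5.99 at 5 weeks, and 16 of the 18 were higher at 2 weeks than in controls. Their part in the Acoxl difference was not tested.

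**Figure D2:**
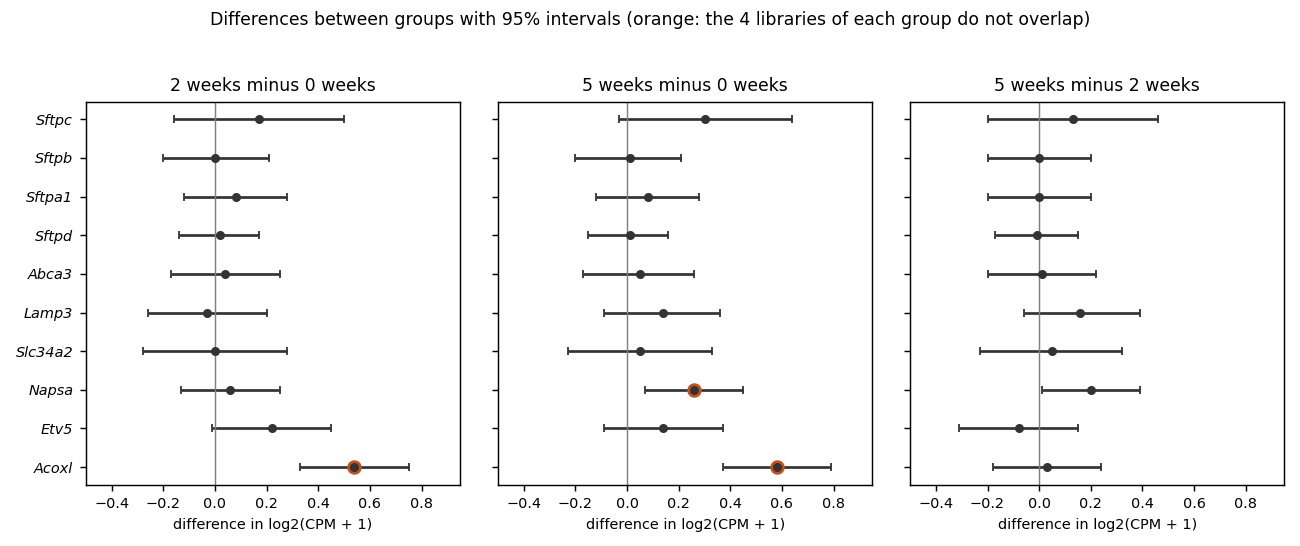
Difference in log2(CPM + 1) between groups (horizontal axis) for each of the 10 genes (vertical axis), with limma 95% intervals, for 2 minus 0 weeks, 5 minus 0 weeks and 5 minus 2 weeks. Orange points mark genes whose libraries did not overlap: Acoxl in both comparisons with controls, at 0.54 and 0.58, and Napsa at 5 weeks, at 0.26.

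Counted together, 9 of 10 genes had a higher mean at 2 weeks and 10 of 10 at 5 weeks than in controls, with median log2 differences of 0.05 and 0.11. Over all 15562 genes 55.1% and 55.0% were higher in these comparisons and the median was 0.02 in each. None of the 10 passed the adjusted threshold in limma, as was true of 0% of all genes in every comparison. Before adjustment, 1 of the 10 (Acoxl) had a p under 0.05 at 2 weeks, where 9.24% of all genes did, and 2 (Acoxl and Napsa) at 5 weeks, where 8.63% did. Libraries did not overlap and were higher for 1 of 10 genes at 2 weeks, against 3.37% of all genes, and for 2 of 10 at 5 weeks, against 3.65%. Between 5 and 2 weeks 7 of 10 were higher, with a median of 0.02 beside 0.00 for all genes. There 1 of the 10 (Napsa) had an unadjusted p under 0.05, where 10.9% of all genes did, and 0 of 10 had libraries that did not overlap, against 4.94% of all genes. Without the 3 libraries that stood apart, a count added after the values were seen, 9 of 10 genes were higher at 2 weeks, 9 at 5 weeks and 5 between 5 and 2 weeks, with medians of 0.09, 0.10 and 0.01. The count at 2 weeks depended on the scaling: centred on the pan-epithelial genes, 3 of 10 genes (Sftpc, Etv5 and Acoxl) were higher at 2 weeks, with a median of -0.05, and 8 were higher at 5 weeks, with a median of 0.08. With median-of-ratios scaling 6 were higher at 2 weeks and 8 at 5 weeks, and with quantile scaling 7 and 9. With library weights 6 and 9 were higher. Without 2-week replicate 1, 2-week replicate 4, control replicate 2 or control replicate 3, each left out alone, 6 were higher at 2 weeks. For 5 weeks over controls the count was 7 without control replicate 3, with a median of 0.06. It was 8 without control replicate 2 and 8 without 5-week replicate 4, with a median of 0.08 in each case. At 5 over 2 weeks the count was 3 without 2-week replicate 2 and 4 without 5-week replicate 4. Both comparisons with the 0-week group share the same 4 controls, and the 10 genes are not independent of each other.

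Within groups, lungs differed in the level of the 10 genes. On a scale of SD units around each gene's own mean, control replicate 3 averaged -1.16 over the 10 genes and was the lowest library for 4 of them. Control replicate 2 averaged -0.88, and 2-week replicates 2 and 3 averaged -0.76 and -0.74. At the upper end, 2-week replicate 4 averaged 1.02, 2-week replicate 1 averaged 0.83 and 5-week replicate 4 averaged 0.73. The 4 lungs of the 2-week group thus held a high and a low pair. The low and high libraries differed in other markers too: control replicate 3 and 2-week replicates 1, 2 and 3 were the ones low in alveolar macrophage genes, but 2-week replicate 1 was high in the surfactant genes. The part of cell makeup in this spread was not tested.

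**Figure D3:**
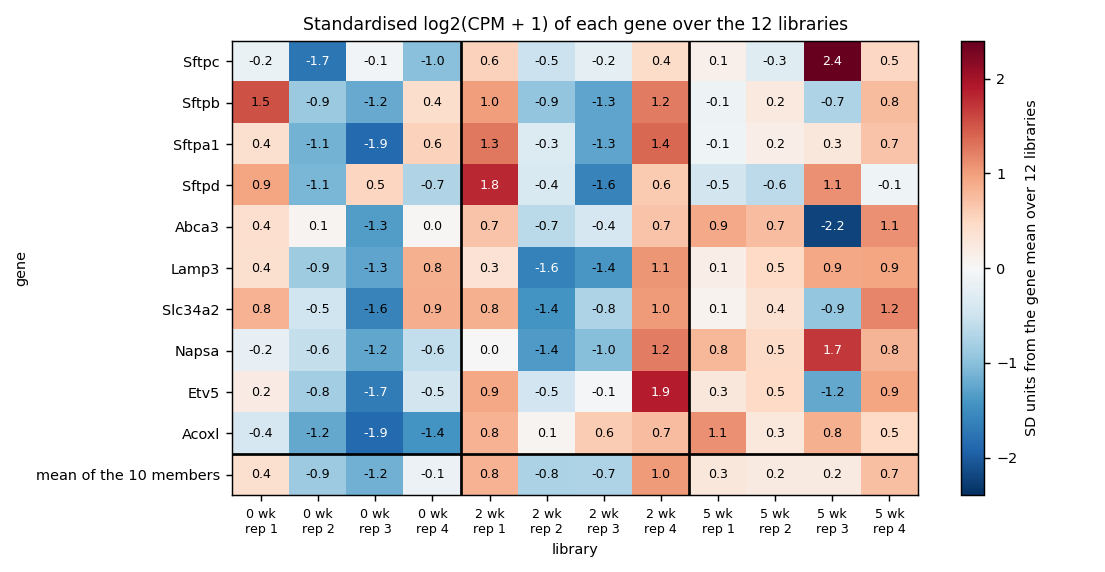
Level of each gene in each of the 12 libraries, in SD units of log2(CPM + 1) around the gene's own mean (colour and printed value), with the mean of the 10 genes in the bottom row. Columns run from 0 to 5 weeks, and the bottom row spans -1.16 in control replicate 3 to 1.02 in 2-week replicate 4.

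The 5-week replicate 3 was mixed rather than high or low. It was the highest library for Sftpc and Napsa and the second highest for Sftpd, but the lowest for Abca3 and the second lowest for Etv5. Abca3, Slc34a2 and Etv5 have the longest exonic sequences of the 10, at 9374, 5013 and 4103 bases, while Sftpc has the shortest, at 1034 bases. Over the 10 genes, exonic length and the level in this library had a Spearman rho of -0.75, beside the rho of -0.52 over all genes given above. The same measure over the 10 genes was -0.61 in control replicate 3, a library with a rho of -0.09 over all genes. It was 0.71 in control replicate 2, 0.78 in 5-week replicate 2 and 0.76 in 5-week replicate 4. The part of transcript length in the values of 5-week replicate 3 was not tested.

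Pairs of genes were compared across the 12 libraries, with permutation p-values adjusted over the 45 pairs. The median Pearson's r was 0.50, and 14 pairs passed an adjusted p of 0.05, with 16 by Spearman's rho and 11 after group means were removed. Sftpb and Slc34a2 were the closest pair, with r = 0.92 and rho = 0.84 (permutation p = 0.00015 and 0.00127, adjusted 0.00675 and 0.0142), and r was 0.95 without the 2 libraries farthest from the median of Sftpb. Sftpb and Sftpa1 had r = 0.85 and rho = 0.90 (permutation p = 0.0004 and 0.00016, adjusted 0.009 and 0.0072), with r = 0.89 without the 2 farthest libraries. Lamp3 and Napsa had r = 0.82 and rho = 0.82 (permutation p = 0.00149 and 0.00204, adjusted 0.0121 and 0.0142), with r = 0.73 without the 2 farthest. All pairs share the same libraries and the same total to which CPM are scaled.

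Sftpc, the most abundant of the genes, had low correlations with several others. Its r was 0.12 with Sftpb, 0.01 with Slc34a2 and -0.35 with Abca3, the lowest of the 45 pairs, and none of these passed (permutation p = 0.719, 0.986 and 0.261, adjusted 0.758, 0.986 and 0.356; rho = 0.34, 0.20 and 0.17). Without the 2 libraries farthest from the median of Sftpc these r were higher, at 0.38, 0.33 and 0.48. Each of these was below 0.50, the median r of all pairs over the 12 libraries. With Etv5 the r of Sftpc was 0.09 (permutation p = 0.78, adjusted 0.797), but 0.61 without the same 2 libraries. By Pearson's r Sftpc was closest to Napsa, with r = 0.69 and rho = 0.69 (permutation p = 0.00779 and 0.017, adjusted 0.027 and 0.0479), and r was 0.61 without the 2 farthest libraries. After group means were removed the r of Sftpc and Napsa was 0.52, with a permutation p of 0.0411 and 0.109 after adjustment. With Sftpd, Sftpc had r = 0.64 and rho = 0.78 (permutation p = 0.0223 and 0.00429, adjusted 0.067 and 0.0241). That r was 0.78 after group means were removed (permutation p = 0.00156, adjusted 0.014) and 0.57 without the 2 farthest libraries.

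**Figure D4:**
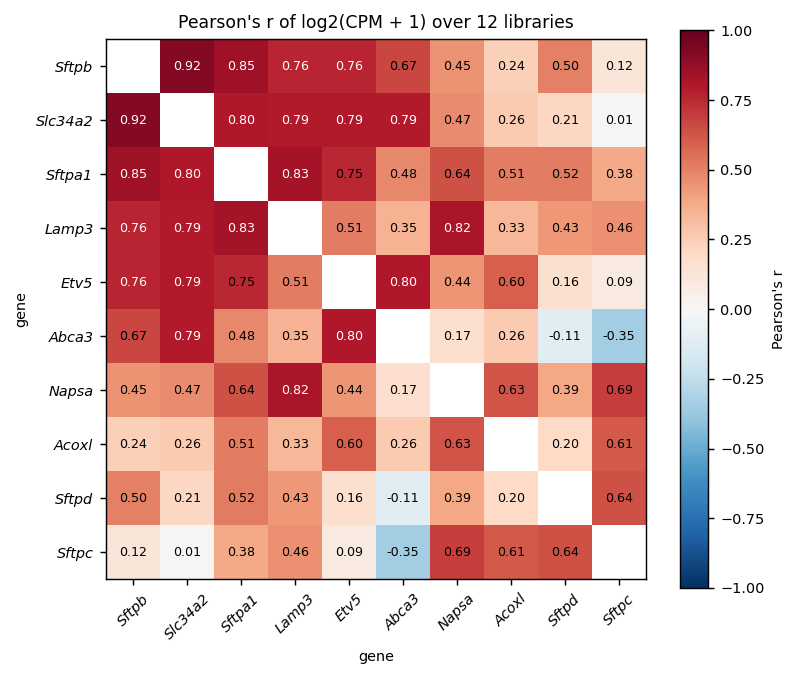
Pearson's r of log2(CPM + 1) across the 12 libraries for the 45 pairs of genes (both axes list the genes, colour and printed value give r). Sftpb, Slc34a2, Sftpa1, Lamp3 and Etv5 form a block with r between 0.51 and 0.92, while Sftpc ranges from -0.35 with Abca3 to 0.69 with Napsa.

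Among 10402 other genes averaging 10 CPM or more, those whose standardised level lay closest to the mean of the 10 over the 12 libraries were Lpcat1, Lgi3, Mlc1, Lrrfip1 and Praf2. Their mean absolute differences were 0.23, 0.35, 0.35, 0.39 and 0.40 SD units, against a median of 1.10 for all genes compared. Lpcat1, the acyltransferase that makes the saturated phosphatidylcholine of surfactant, was closer than any of the 10 themselves, whose values ran from 0.28 for Sftpa1 to 0.82 for Sftpc. Lpcat1 averaged 398.8 ± 38.9 CPM at 0 weeks, 417.2 ± 39.5 CPM at 2 weeks and 437.9 ± 12.3 CPM at 5 weeks (SD, n = 4 each).

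Among other genes of the pathway and markers of other cells, none passed the adjusted threshold in any comparison. Of 20 further type 2 markers, 9 were higher at 2 weeks and 16 at 5 weeks than in controls, with medians of -0.04 and 0.16. In this list 2 of 20 genes had an unadjusted limma p under 0.05 at 2 weeks, where 9.24% of all genes did. At 5 weeks 7 of 20 had one, where 8.63% of all genes did. Those 7 went both ways, with Il33 among the lower ones. In that comparison such a p was also seen for 7 of 15 fibroblast, 6 of 15 transitional epithelial and 6 of 6 red cell genes. It was seen for 2 of 18 type 1 and 0 of 18 pan-epithelial genes. Without the 3 libraries that stood apart, 11 and 13 of the 20 were higher, with medians of 0.02 and 0.10. Bex2, of the brain-expressed X-linked family, averaged 16.6 ± 2.70 CPM at 0 weeks, 26.3 ± 1.86 CPM at 2 weeks and 30.3 ± 6.24 CPM at 5 weeks (SD, n = 4 each). Its log2 differences from controls were 0.65 ± 0.14 and 0.82 ± 0.14, with limma adjusted p of 0.182 and 0.215. Lyz2, the lysozyme shared by type 2 cells and macrophages, differed by 0.48 ± 0.16 at 5 weeks and by 0.35 ± 0.16 between 5 and 2 weeks. Il33, an alarmin of the alveolar epithelium, differed by -0.49 ± 0.12 at 2 weeks, and Mettl7a1 by 0.23 ± 0.08 between 5 and 2 weeks.

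Transcription factors of the distal epithelium were higher in 12 of 14 cases at 2 weeks, with a median of 0.15, and in 8 of 14 at 5 weeks, with a median of 0.04. Elf5, an ETS factor of the distal lung epithelium, differed by 0.39 ± 0.10 at 2 weeks and Foxa2, a forkhead factor of surfactant gene promoters, by 0.21 ± 0.08. At 5 weeks the smallest p belonged to Cebpb, at 0.31 ± 0.13, with Elf5 at 0.09 ± 0.10. Between 5 and 2 weeks 11 of 14 were lower, and Elf5 differed by -0.29 ± 0.10 and Nkx2-1, the homeodomain factor of lung epithelium, by -0.19 ± 0.09. Of the 18 pan-epithelial genes, 16 were higher at 2 weeks (median 0.10), or 12 of 17 without the 3 libraries (median 0.06). At 5 weeks 12 were higher (median 0.03), and between 5 and 2 weeks 3 were (median -0.08). These differences ran beside those of the factors, but Elf3 and Grhl2 are in both lists. Cldn18 is also among the further type 2 markers. The part of the pan-epithelial genes was not tested. Cdh1 and Rab25, of epithelial adhesion and vesicle traffic, both differed by 0.21 ± 0.09 at 2 weeks. At 5 weeks Rab25 differed by 0.11 ± 0.09 and the claudin Cldn18 by 0.10 ± 0.07, and between 5 and 2 weeks Cdh1 differed by -0.18 ± 0.09 and Cldn18 by 0.15 ± 0.07.

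Of the signalling genes upstream of and beside Etv5, 10 of 14 were lower at 2 weeks (median -0.12) and 8 of 14 were lower at 5 weeks (median -0.06). Fgf10, the mesenchymal ligand of FGFR2, differed by -0.39 ± 0.16 at 2 weeks and -0.38 ± 0.16 at 5 weeks. Spred2, a feedback inhibitor of ERK signalling, differed by -0.20 ± 0.11 and -0.22 ± 0.11. Between 5 and 2 weeks 7 of 14 were higher, and Dusp6, an ERK phosphatase, and Etv1 had the smallest p at 0.17 ± 0.15 and 0.12 ± 0.11.

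Of 26 genes of surfactant phospholipid and fatty acid synthesis, 16 were lower at 2 weeks and 18 at 5 weeks, with medians of -0.04 and -0.05. Without control replicate 2, 13 of 26 were lower at 2 weeks and 15 at 5 weeks, with medians of -0.00 and -0.02, and without the 3 libraries that stood apart 13 and 12 were lower. Scd1, the stearoyl-CoA desaturase, averaged 2531 ± 2252 CPM at 0 weeks, 989.8 ± 198.8 CPM at 2 weeks and 978.5 ± 52.8 CPM at 5 weeks (SD, n = 4 each). Its differences from controls were -0.99 ± 0.42 at each time, and -0.46 at each time without control replicate 2. The highest control was replicate 2, at 5839.7 CPM, the library with the adipocyte markers, while the other controls held 1899.5, 819.7 and 1563 CPM. Chkb, a choline kinase, differed by 0.22 ± 0.11 at 2 weeks and Cept1, a phosphotransferase, by 0.18 ± 0.08 at 5 weeks. Plin2, the coat protein of lipid droplets, differed by 0.36 ± 0.13 between 5 and 2 weeks and Chkb by -0.22 ± 0.11.

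Among 25 genes of surfactant secretion, uptake and breakdown, 17 were lower at 2 weeks (median -0.06) and 14 at 5 weeks (median -0.01), while 16 were higher between 5 and 2 weeks (median 0.05). Both chains of the receptor for granulocyte-macrophage colony-stimulating factor, by which alveolar macrophages acquire the ability to clear surfactant, had the smallest p at 2 weeks, Csf2ra at -0.36 ± 0.14 and Csf2rb at -0.70 ± 0.28. At 5 over 2 weeks Csf2rb differed by 0.91 ± 0.28 and Pla2g15, a lysosomal phospholipase, by 0.37 ± 0.12. At 5 weeks over controls the smallest p belonged to Atp11a, a phospholipid flippase, at -0.32 ± 0.14, and Pla2g15, at 0.27 ± 0.12. In the alveolar macrophage list, 14 of 15 genes were lower at 2 weeks than in controls (median -0.59) and 14 of 15 higher between 5 and 2 weeks (median 0.62). Without the 3 libraries these counts were 11 and 13 of 15, with medians of -0.32 and 0.61. The list summed to 609.4 to 1639.6 CPM at 0 weeks, 553.7 to 1166 at 2 weeks and 1000.2 to 1336 at 5 weeks. The highest sum, in control replicate 2, held 436.8 CPM of Fabp4 and 186.2 CPM of Cidec, which are also in the adipocyte list. The part of the macrophage list in the receptor values was not tested.

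In the list of activated and transitional alveolar epithelium, 7 of 15 genes were higher at each time than in controls (medians -0.03 and -0.02). Itgb6, the epithelial integrin that activates latent transforming growth factor beta, averaged 20.5 ± 2.69 CPM at 0 weeks, 32.9 ± 2.57 CPM at 2 weeks and 28.1 ± 3.41 CPM at 5 weeks (SD, n = 4 each). Its differences from controls were 0.66 ± 0.11 and 0.43 ± 0.11, with limma adjusted p of 0.0835 and 0.379. No gene had a lower adjusted p in the 2-week comparison, but genes of unlike p can share that value after Benjamini-Hochberg adjustment. Lcn2, a lipocalin of innate defence, differed by -0.40 ± 0.15 at 2 weeks. Cdkn1a, the cell cycle inhibitor p21, differed by -0.26 ± 0.08 at 5 weeks and by -0.17 ± 0.08 between 5 and 2 weeks, where Lgals3, galectin 3, differed by 0.31 ± 0.14. Of 18 type 1 cell markers, 14 were higher at 2 weeks (median 0.10) and 8 at 5 weeks (median -0.01). Igfbp2, which marks terminally differentiated type 1 cells in the mouse, averaged 232.1 ± 48.3 CPM at 0 weeks, 363.4 ± 43.0 CPM at 2 weeks and 413.2 ± 77.5 CPM at 5 weeks (SD, n = 4 each). Its differences from controls were 0.66 ± 0.15 and 0.83 ± 0.15, with limma adjusted p of 0.208 and 0.215, and Hopx, a homeodomain protein of type 1 cells, differed by 0.36 ± 0.12 and 0.28 ± 0.12. At 5 over 2 weeks Col4a4, a collagen chain of the basement membrane, differed by -0.37 ± 0.15 and Spock2, a proteoglycan, by -0.33 ± 0.10.

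Markers of the airway, from which some of the surfactant proteins are also made, were compared in the same way. Of 12 club and secretory genes, 10 were higher at 2 weeks (median 0.13) and 10 lower at 5 weeks (median -0.20) than in controls. Their summed level was 29310.5 to 43289 CPM at 0 weeks, 29958 to 43460.1 CPM at 2 weeks and 27062 to 35346 CPM at 5 weeks, and their part in the levels of Sftpb, Sftpa1 and Sftpd was not tested. Of 13 ciliated cell genes, 13 were higher at 2 weeks (median 0.22) and 8 at 5 weeks (median 0.02). Of 15 endothelial genes, 11 were higher at 2 weeks (median 0.07) and 4 at 5 weeks (median -0.03), and of 15 fibroblast genes 12 were lower at 2 weeks (median -0.11) and 10 at 5 weeks (median -0.15), but 8 at each time without the 3 libraries. Red cell genes were higher in 6 of 6 cases at 5 weeks (median 1.45, or 0.90 without the 5-week replicate 3) and in 3 of 6 at 2 weeks (median 0.00). Adipocyte genes were lower in 11 of 11 cases at 2 weeks and 10 of 11 at 5 weeks (medians -1.05 and -0.77). Without control replicate 2, the library with 2208 CPM of them, 5 of 11 were lower at 2 weeks and 2 of 11 at 5 weeks (medians 0.03 and 0.13). Without all 3 libraries that stood apart, 10 of 11 adipocyte genes were higher at 2 weeks and 3 of 11 at 5 weeks (medians 0.35 and -0.08). Of all the listed markers that were measured, Ucp1 of the adipocyte list was listed at 0 in a library.

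Of the 48 differences given for single genes outside the 10, 18 moved by over 1.5 times without 1 or all of the 3 libraries that stood apart. These counts and values, like those of the lists without a library, were added after the values were seen. Without the 5-week replicate 3, the library in which longer genes were lower, Col4a4 differed by -0.19 between 5 and 2 weeks and Atp11a by -0.15 at 5 weeks over controls. In the same setting, the differences at 5 weeks over controls were -0.14 for Spred2, 0.11 for Cept1, 0.05 for Rab25 and 0.18 for Hopx. The differences between 5 and 2 weeks were 0.20 for Lgals3, -0.12 for Cdh1 and 0.27 for Dusp6. Without control replicate 2, Cdh1 differed by 0.14 at 2 weeks, and at 5 weeks Elf5 differed by 0.02 and Cldn18 by 0.07. Without all 3 libraries, Itgb6 at 5 weeks differed by 0.28, Lcn2 at 2 weeks by -0.26, Chkb at 2 weeks by 0.15, and Lyz2 between 5 and 2 weeks by 0.18. The part of these libraries' features in these values was not tested.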

How the data were processed

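Bulk RNA from 12 mouse lungs was analysed. The authors deposited CPM values, that is, reads per 1e6 reads, with an offset of 0.0001 in each cell. Per the submitters' processing notes, TopHat2 and Partek were used with mm10. For versions, annotation and strandedness: not given in the sources used here. None of the 10 genes shares its start with GENCODE M21 on GRCm38, although 9 of them have the same span from start to stop. The deposited coordinates thus do not match that build and are not printed. Of the low values of a library, at the depth fitted to low values, 87.4% to 88.0% lay within 0.1 of a whole read, too few for a count model. Groups follow the labels, with replicates numbered in accession order, and each label carries its own mouse number. The pseudocount was 1, and the 15562 genes averaging 1 CPM or more were tested on log2(CPM + 1) with limma 3.58.1 in R 4.3.3 (trend, all 12 libraries, Benjamini-Hochberg over all genes), so fold changes of low genes are understated. Exact permutation tests and correlations used scipy 1.17.1 (100000 resamples for a correlation). The fit was first tested on simulated data. The 10 genes and all lists were chosen with earlier results of these data known. From each pathway list and the type 1 and pan-epithelial lists the 2 genes with the smallest p per comparison are named, since none passed, and the lists of other cell types are given by counts. Motifs were searched in RefSeq promoters. Napsa shares 502 exonic bases with the antisense gene Gm15396 (0.0561 CPM). Alternatives were other pseudocounts, filters and scalings, library weights, robust moderation, fits of 2 groups and leaving out libraries.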

Additional observations from a re-analysis of the deposited data

Results flagged for a closer look

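Of 30 sets of 4 libraries examined (10 genes in 3 groups), 1 held a library far from the others, and about 1 in 20 such sets would do so by chance. Abca3 stood at 276.8 CPM in the 5-week replicate 3, while the other 5-week libraries held 370.1, 364.2 and 376.4 CPM. The same library held 16211 CPM of red cell genes, and its gene levels had a Spearman rho of -0.52 with exonic length. The part of either in the Abca3 value was not tested.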

How the results depend on the processing

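No paired analysis was possible because the labels give each mouse its own number and no numbers shared between groups. In the 3 comparisons between groups, 0 of the 10 genes were called under each alternative run. In the test over any of the 3 groups the count was 1 (Acoxl) with library weights, where 286 of all genes were called. It was between 0 and 1 when each library was left out in turn, being 1 without the 2-week replicate 4, where 132 of all genes were called. Over all genes, library weights called 579 genes higher and 302 lower at 5 over 2 weeks, leaving out the 2-week replicate 4 called 287 higher and 99 lower, and the fit reported called 0. With the treated groups pooled, the difference of Acoxl lay between 0.50 and 0.64 with each library left out, and passed (adjusted p of 0.0259) without control replicate 1.

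Small differences changed sign, and the cause was not tested. Centring on the pan-epithelial genes shifts every gene by -0.10 at 2 weeks over controls, by construction. Under it Sftpb and Slc34a2 gave -0.10 each, Sftpa1 -0.02, Sftpd -0.09, Abca3 -0.06 and Napsa -0.04 at 2 weeks, Sftpb and Sftpd -0.02 each at 5 weeks, and Sftpd 0.06 between 5 and 2 weeks. Quantile scaling gave -0.03 for Sftpa1 at 2 weeks and -0.02 for Sftpd at 5 weeks, and median-of-ratios scaling gave -0.02 for Sftpb and Sftpd at 5 weeks. Library weights gave -0.03 for Sftpd at 5 weeks and 0.03 for Etv5 between 5 and 2 weeks. Without the 3 libraries that stood apart, Sftpd gave -0.05 at 5 weeks and Sftpc -0.01 between 5 and 2 weeks. With 1 library left out in turn, the 2-week difference lay between -0.03 and 0.06 for Sftpd, -0.01 and 0.07 for Abca3, -0.11 and 0.04 for Lamp3 and -0.02 and 0.12 for Napsa. The 5-week difference lay between -0.03 and 0.05 for Sftpb, -0.02 and 0.03 for Sftpd and -0.04 and 0.11 for Slc34a2. Between 5 and 2 weeks it lay between -0.06 and 0.03 for Sftpd, -0.04 and 0.11 for Abca3, -0.03 and 0.11 for Slc34a2 and -0.02 and 0.08 for Acoxl. Over these alternatives the Acoxl difference from controls stayed between 0.44 and 0.63 at 2 weeks and between 0.51 and 0.66 at 5 weeks.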
